A study of Mus musculus with 79 samples.

Results

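The transcripts of the mouse mitochondrial genome were described in bulk RNA sequencing of the medial prefrontal cortex (mPFC) and the ventral hippocampus (vHipp). Members were all genes that the deposited count table places on chromosome MT, which gave 37 of 55471 genes. Of these, 13 were mRNA genes, 2 were rRNA genes and 22 were tRNA genes. Every library of 40 male wild-type CD-1 mice was used, 39 from the mPFC and 40 from the vHipp, at an age of 9 to 10 weeks. CSDS mice had gone through 21 days of a modified chronic social defeat stress (CSDS) protocol, and CTRL mice had not. Within each condition mice received a single intraperitoneal injection of (R,S)-ketamine at 10 mg/kg, an antagonist of NMDA-type glutamate receptors, or saline, and tissue was taken 7 days later as 1 mm punches. The 8 groups, defined by region, stress and treatment, held 10 libraries each, with the exception of the CSDS, ketamine-treated mPFC group with 9, because the mPFC of mouse 5 was not analyzed here. The animals were housed in social groups of 4, whole groups were assigned to CSDS or CTRL, so that mice of a group are not independent for stress, and the social box (SB) of each animal was not given in the labels used here. Treatments were taken from the labels. Figures of the study print mouse numbers under a treatment, and for the majority of these numbers the labels give the other treatment; which is right was not tested, and every value by treatment rests on the labels.

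The mitochondrial genome is a small circle present in many copies per cell. Both of its strands are transcribed into long precursors, which are cut mainly at the tRNAs that lie between the other genes. The mRNAs encode core subunits of the respiratory chain (complexes I, III and IV) and of ATP synthase (complex V), the rRNAs form the scaffold of the mitochondrial ribosome, and the tRNAs serve translation inside the organelle. All other proteins of the organelle, including most respiratory chain subunits and the whole transcription machinery, are encoded in the nucleus. Brain tissue is rich in these transcripts, because neurons depend on oxidative phosphorylation. The libraries were made with a kit that selects polyadenylated RNA, so that tRNAs and most nuclear non-coding RNA are poorly captured.

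Several properties of the sequences bear on every count, and the stretches concerned are printed here from GENCODE M21 transcripts (build GRCm38), 5′ to 3′ along the plus strand of MT. The reading frames of mt-Atp8 and mt-Atp6, both subunits of ATP synthase, share 43 bases, shown in capitals at the end of mt-Atp8 (MT:7917-7969). On opposite strands, mt-Nd5 and mt-Nd6 share 14 bases, shown in capitals at the end of mt-Nd5 (MT:13532-13565); mt-Nd6 is the sole mRNA gene of the minus strand.
end of mt-Atp8: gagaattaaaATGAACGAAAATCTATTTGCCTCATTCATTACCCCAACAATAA
end of mt-Nd5: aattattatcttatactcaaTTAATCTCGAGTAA
Long stretches of the mitochondrial genome also exist as copies in the nuclear genome. The first 60 bases of mt-Co2 (MT:7013-7072) are identical to the start of Gm28661 on the minus strand of chromosome 1 (chr1:24615506-24615565), and so are the rest of their 681 aligned bases. The start of mt-Nd3 (MT:9459-9518) differs from that of Gm28438 (chr1:24613060-24613119, minus strand) at a single base, the substitution T3C, counted from the first base of the gene and shown in capitals. These pairs are shown because a short read from them can fit either place.
mt-Co2: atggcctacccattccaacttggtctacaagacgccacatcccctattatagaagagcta
Gm28661: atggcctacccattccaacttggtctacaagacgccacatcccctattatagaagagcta
mt-Nd3: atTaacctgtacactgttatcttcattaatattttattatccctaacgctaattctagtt
Gm28438: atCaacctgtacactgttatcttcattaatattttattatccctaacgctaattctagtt
A pair of tRNAs is printed because their levels recur in the results. The tRNA with the most counts, mt-Tw (tryptophan, MT:4950-5016), and mt-Ti (isoleucine, MT:3706-3774) each begin within the last bases of the mRNA gene before them, mt-Nd2 and mt-Nd1.
mt-Tw: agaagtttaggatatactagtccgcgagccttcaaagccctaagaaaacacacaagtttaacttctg
mt-Ti: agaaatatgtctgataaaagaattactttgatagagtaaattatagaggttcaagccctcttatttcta

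Libraries held 11726129 to 41767119 counts on genes (median 19638060). The closest libraries within a group differed by 4.98 to 10.06 chi-square units per gene, so none matched another of its group within sampling noise. Markers of the labelled tissues were read first: the cortical markers Tbr1 and Cux2 had medians of 168 and 186 CPM (counts per 1000000 counts on genes) in the mPFC and of 46.7 and 33.1 CPM in the vHipp, with no overlap between the regions, and of 5 hippocampal markers, 4 were higher in the vHipp and 1, Wfs1, was higher in the mPFC (median 152.5 against 48.6 CPM). For Prox1 the log2 fold change (LFC, mPFC minus vHipp, with its standard error) was -2.82 ± 0.09. The ranges of the regions overlapped for the cortical markers Rorb and Fezf2 and for the hippocampal marker Trhr. A pair of vHipp libraries stood apart. In the CSDS, ketamine-treated mouse 11, summed astrocyte markers reached 2928 CPM, against a vHipp median of 1165 CPM, and microglia markers 473 CPM against 196 CPM, whereas neuron markers were lowest of all libraries at 5277 CPM. In the CSDS, saline-treated mouse 9, choroid plexus markers summed to 738 CPM against a median of 21.1 CPM. Results that rest on these mice are given with and without them.

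Mitochondrial genes held 2.95% to 8.93% of all counts on genes, with a median of 3.67% in the mPFC and 3.93% in the vHipp. The mRNA genes took most of these counts. They held 1.64% in the 5 genes with at least 80% of their length in an annotated nuclear copy of at least 99% identity and 84.2% in the other 8, the rRNA genes held 14.1%, and the 22 tRNA genes together 0.049%. By gene, mt-Co1, the catalytic subunit of complex IV, took 29.9% of mitochondrial counts. It was followed by mt-Cytb, the sole mitochondrially encoded subunit of complex III, with 15.2%, and by the complex I subunit mt-Nd1 with 13.9%.

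Levels were compared between genes as CPM per kilobase of gene length. With a kit that selects polyadenylated RNA, they also depend on how well each RNA was captured, which was not tested. In the mPFC the median was 7228 for mt-Co1, 5391 for mt-Nd1, 4657 for mt-Cytb and 2846 for mt-Nd2. Next came mt-Rnr1 with 2192, mt-Nd4 with 2190 and mt-Rnr2 with 1940 CPM per kilobase, neighbours whose ranges over libraries overlapped widely. The complex I subunit mt-Nd5 had a median of 1553 and did not fall below 1116 CPM per kilobase in any mPFC library, and the next gene, mt-Co2, did not rise above 585, so the order broke there into genes of high and low level. In the vHipp the same break lay between a lowest value of 1291 for mt-Nd5 and a highest value of 944 CPM per kilobase for mt-Co2. Below it were, in the mPFC, mt-Co2 with a median of 369, mt-Atp6 with 199, mt-Co3 with 178, mt-Atp8 with 80.8, mt-Nd6 with 53.9, mt-Nd4l with 38.7 and mt-Nd3 with 31.4 CPM per kilobase.

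**Figure D1:**
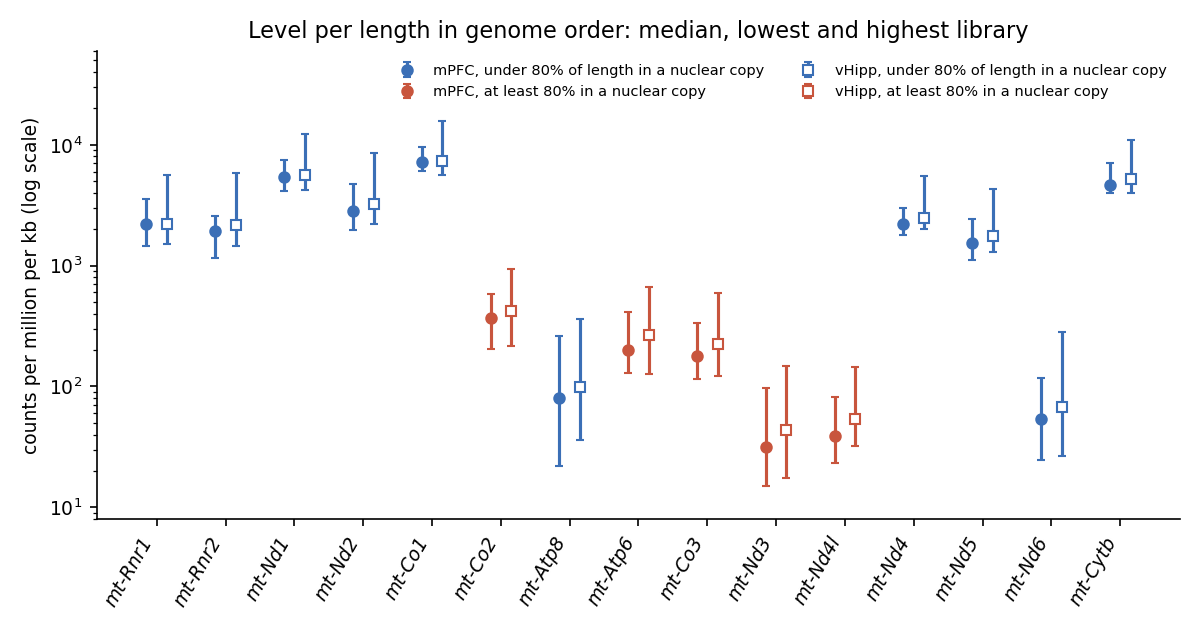
Level of each mRNA and rRNA gene in genome order, as CPM per kilobase on a log scale, in the mPFC and the vHipp. Points are medians and bars run from the lowest to the highest library, and red marks genes with at least 80% of their length in an annotated nuclear copy of at least 99% identity. The 5 red genes have medians of 31.4 to 369 in the mPFC, far under the 7228 of mt-Co1.

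Of the 7 low genes, 5 were those with nearly their whole length, at least 99%, in a copy on chromosome 1: mt-Co2, mt-Atp6, mt-Co3, mt-Nd3 and mt-Nd4l. The copies are neighbours there in the same order as on MT. Between the starts of mt-Co2 and mt-Atp6 lie 914 bases on MT and 914 bases between those of Gm28661 and Gm10925 on chromosome 1, so that mt-Atp8, which lies in this stretch and has no annotated copy of its own, falls inside the same block. The copies themselves were counted. Gm10925 (copy of mt-Atp6) held a median of 2.97 times the counts of its mitochondrial original, Gm28438 (mt-Nd3) 3.37 times, Gm10222 (mt-Nd4l) 3.13 times and Gm28437 (mt-Co3) 1.96 times, and the copy was above the original in 79 of 79 libraries for each of them. For Gm28661 (mt-Co2) the ratio was 1.16, with the copy higher in 76 of 79. Other copies held less than the original. Gm29216, with 31.3% of mt-Co1, had a median of 424 CPM beside 11316 CPM for mt-Co1, and Gm28439, with 63.6% of mt-Nd4, had 160 CPM beside 3195 CPM for mt-Nd4. On chromosome 2, Gm13340 covers the whole of mt-Co1 at 97.6% identity and had 336 CPM, and Gm13341 the whole of mt-Co2 at 95.9% identity and had 21.5 CPM. How reads that fit both places were assigned is not given in the sources used here, and the level of the 5 genes and of mt-Atp8 relative to the others is therefore uncertain. In all, 11 nuclear genes matched a mitochondrial gene at 95% identity or more, and their summed share of the library was 0.116% to 0.526%.

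The seventh low gene, mt-Nd6, encodes a complex I subunit on the minus strand. Its counts were 1.12% of those of mt-Nd5 in the median vHipp library and 0.949% in the median mPFC library. The part of capture by the kit in this gap was not tested. Among tRNA genes, mt-Tw reached a median of 104.5 CPM per kilobase in the mPFC and mt-Tm (methionine) 51.9, whereas mt-Tk and mt-Ts2 had 0 counts in all 79 libraries. A further 8 tRNA genes (mt-Tg, mt-Tr, mt-Th, mt-Tc, mt-Tn, mt-Tf, mt-Tl2 and mt-Tv) were at 0 in 60 libraries or more. With this library type a count of 0 says that the RNA was not detectable at this depth.

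To determine whether the regions differed, both libraries of 39 mice were compared in a model with the mouse as a block. Of the 31 mitochondrial genes that passed the filter on low counts, 20 were lower in the mPFC and 0 were higher (adjusted p under 0.05, quasi-likelihood test of edgeR, p values adjusted by Benjamini-Hochberg over all genes). DESeq2 also called 0 higher, and 0 were higher at an unadjusted p under 0.05. Over all 31497 genes tested, 24.7% were lower and 24.3% were higher. The median LFC, mPFC minus vHipp, was -0.24 over the mitochondrial genes and 0.0002 over all genes. In bulk tissue, fewer cells of a type and less RNA per cell cannot be told apart. All 13 mRNA genes were among the 20, and they are described by complex below.

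In complex I, which takes electrons from NADH, mt-Nd4 ranged from 2461 CPM over a median of 3018 CPM to 4097 CPM in the mPFC and from 2749 over 3433 to 7618 CPM in the vHipp. It was lower in the mPFC of 30 of 39 mice, with an LFC of -0.26 ± 0.04 (edgeR, adjusted p = 1.26e-08). For mt-Nd6 the mPFC values were 12.7, 28.0 and 61.1 CPM (lowest, median, highest) and the vHipp values 13.9, 34.9 and 145.3 CPM, with an LFC of -0.46 ± 0.07 and lower values in 31 of 39 mice. The ranges of the regions overlapped for both genes. The differences of the other complex I genes were LFC -0.15 ± 0.03 for mt-Nd1, -0.18 ± 0.04 for mt-Nd2, -0.19 ± 0.04 for mt-Nd5, -0.38 ± 0.07 for mt-Nd4l and -0.44 ± 0.10 for mt-Nd3.

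For complex III, mt-Cytb had 4585, 5327 and 8018 CPM in the mPFC and 4551, 5963 and 12569 CPM in the vHipp (lowest, median, highest), and was lower in the mPFC of 29 of 39 mice (LFC -0.20 ± 0.03, edgeR, adjusted p = 2.71e-06). In complex IV, mt-Co1 changed least of the mRNAs. Its mPFC values were 9355, 11167 and 14763 CPM and its vHipp values 8654, 11361 and 24382 CPM, with the lower value in the mPFC in 21 of 39 mice. The LFC of mt-Co1 was -0.10 ± 0.04 (edgeR, adjusted p = 0.0168), and the call was lost without mouse 11 (LFC -0.06, edgeR, adjusted p = 0.0796) and without mouse 9 (LFC -0.08, edgeR, adjusted p = 0.0540). The other complex IV subunits, mt-Co2 and mt-Co3, had LFCs of -0.30 ± 0.08 and -0.31 ± 0.07, and the ATP synthase subunits mt-Atp6 and mt-Atp8 had LFCs of -0.34 ± 0.07 and -0.43 ± 0.08. Of these, mt-Co2, mt-Co3 and mt-Atp6, with mt-Nd3 and mt-Nd4l, are the genes with nearly their whole length in a nuclear copy.

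The rRNAs differed from each other. The large-subunit rRNA mt-Rnr2 had 1845, 3069 and 4074 CPM in the mPFC and 2294, 3432 and 9256 CPM in the vHipp (LFC -0.21 ± 0.05, edgeR, adjusted p = 8.10e-05). The small-subunit rRNA mt-Rnr1 had 1382, 2094 and 3419 CPM in the mPFC and 1437, 2109 and 5320 CPM in the vHipp. Its LFC of -0.08 ± 0.04 did not pass (edgeR, adjusted p = 0.148), and it was lower in the mPFC in 19 of 39 mice.

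Among the tRNA genes, 6 had lower counts in the mPFC. The steepest LFC of the genes called was that of mt-Tt (threonine), which lies beside mt-Tp (proline), on the opposite strand, after mt-Cytb. For mt-Tt the values were 0.247, 0.822 and 1.55 CPM in the mPFC and 0.943, 1.47 and 4.61 CPM in the vHipp, lower in the mPFC of 38 of 39 mice (LFC -1.01 ± 0.10, edgeR, adjusted p = 1.97e-12). For mt-Tp they were 0.740, 1.48 and 2.54 CPM and 1.40, 2.36 and 5.12 CPM, again lower in 38 of 39 mice (LFC -0.85 ± 0.08). The other tRNAs called were mt-Ta with an LFC of -0.87 ± 0.16, mt-Tq with -0.71 ± 0.12, mt-Te with -0.51 ± 0.17 and mt-Tw with -0.24 ± 0.06. These levels are low, and mt-Ta and mt-Te were each at 0 in 2 of 79 libraries. Counts on a tRNA gene may come from the tRNA or from an uncut precursor, and which was not tested.

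**Figure D2:**
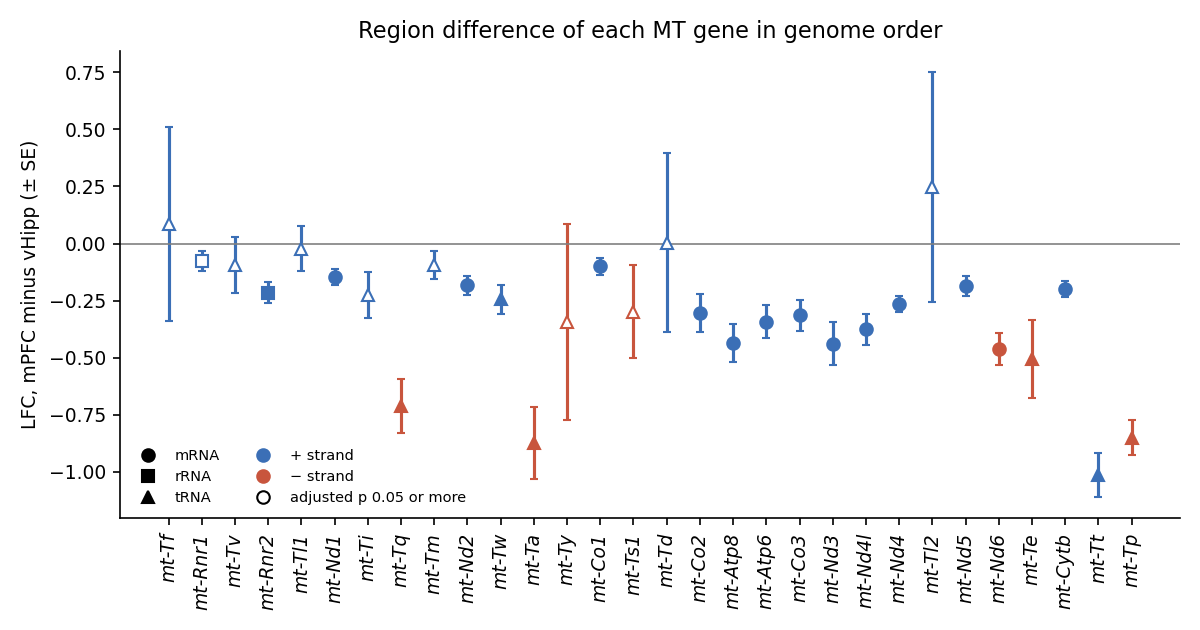
LFC of each mitochondrial gene, mPFC minus vHipp, with its standard error, in genome order; filled symbols have an adjusted p under 0.05 (edgeR), colour gives the strand and shape the kind of RNA. The called genes all lie below 0, from -1.01 for mt-Tt to -0.10 for mt-Co1; mt-Tn, with 12 counts over all libraries, could not be estimated and is left out.

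The region difference was read within the 5 mouse sets, each a run of 4 CSDS and 4 CTRL mouse numbers whose libraries also carry consecutive numbers. Fitted alone, the sets gave 9, 4, 4, 8 and 16 mitochondrial genes lower in the mPFC and 0 higher (edgeR, adjusted p under 0.05). Over all genes, 17.8%, 17%, 14%, 16.9% and 17.2% were lower. The median LFC was -0.23, -0.05, -0.36, -0.21 and -0.45 in sets 1 to 5. In set 2, 12 of 26 genes tested were above 0, and its 4 calls were no larger a share than the 17% of all genes. The size of the difference therefore varied between sets. Without mice 9 and 11, 19 genes were lower, where 24.5% of all genes were, and the median LFC was -0.20.

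Nuclear genes of the same system were read from lists. Of 74 nuclear-encoded subunits of oxidative phosphorylation tested, 69 were lower in the mPFC and 0 were higher, with a median LFC of -0.17. The largest differences were those of Atp5g1 (also Atp5mc1), a subunit of the ATP synthase ring, at -0.45 ± 0.03, and of the complex I subunits Ndufv3 at -0.35 ± 0.02 and Ndufa1 at -0.33 ± 0.03. Of 45 nuclear genes for the maintenance, transcription, processing and translation of the mitochondrial genome, 24 were lower and 3 were higher, with a median LFC of -0.10. Among them were the mitochondrial topoisomerase gene Top1mt at -0.51 ± 0.03, the exonuclease gene Mgme1 at 0.35 ± 0.05 and the RNA-binding protein gene Fastkd1 at -0.31 ± 0.03. Cell type markers also differed between the regions: 4 of 6 neuron markers were lower in the mPFC and 1 was higher, 3 of 5 astrocyte markers were lower and 1 was higher (Aldh1l1, LFC 0.40 ± 0.05), and 3 of 4 endothelial, 5 of 5 erythroid and 1 of 5 microglia markers were higher. Of 5 choroid plexus markers, 2 were lower (Kl, LFC -1.95 ± 0.08, and Folr1, -1.76 ± 0.40) and 1 was higher (Kcnj13, 2.08 ± 0.38), and 5 of 5 oligodendrocyte markers were below 0 (median -0.33) without passing. Their part in the mitochondrial difference was not tested.

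The balance between transcripts was followed with 5 ratios, each tested for region, stress and treatment (25 permutation tests of 100000 resamples, two-sided, adjusted together). Capture of each RNA by the kit also enters these ratios, and its part was not tested. The rRNA ratio mt-Rnr2/mt-Rnr1 had a lowest value of 1.19, a median of 1.47 and a highest value of 1.67 in the mPFC, and 1.24, 1.60 and 1.76 in the vHipp. It was lower in the mPFC in 38 of 39 mice, by 0.14 ± 0.01 on the log2 scale (SE; permutation test, adjusted p = 0.0005), the clearest shift of the 5. The ratio mt-Nd6/mt-Nd5, which sets a minus-strand against a plus-strand mRNA of the same complex, fell by 0.28 ± 0.06 in the mPFC and was lower there in 32 of 39 mice (permutation test, adjusted p = 0.0010). The ratio mt-Cytb/mt-Nd1, of a late and an early gene of the plus strand, was lower by 0.05 ± 0.01 in 30 of 39 mice (permutation test, adjusted p = 0.00233).

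The remaining ratios depended on which mice were used. The ratio mt-Co1/mt-Nd1, of complexes IV and I, had a median of 2.15 in the mPFC and 2.10 in the vHipp and was higher in the mPFC by 0.05 ± 0.01 on the log2 scale (permutation test, adjusted p = 0.00875). Without set 1, which holds the library with the most extreme ratio (vHipp of the CSDS, ketamine-treated mouse 1), its difference was 0.03 (adjusted p = 0.263, permutation test). Conversely, mt-Rnr2/mt-Nd1 did not pass with all mice (-0.07 ± 0.03, permutation test, adjusted p = 0.0509) and passed without set 1 (-0.09, permutation test, adjusted p = 0.0164). Without mice 9 and 11 it did not pass (-0.05, permutation test, adjusted p = 0.156). No ratio passed for stress or treatment in either region. The smallest p was that of mt-Rnr2/mt-Rnr1 in the vHipp, which was lower in CSDS mice by 0.07 ± 0.03 (permutation test, p = 0.0347, adjusted p = 0.145).

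The share of the library was described without a test, as a sum over the chosen genes. In the mPFC it was 3.69% ± 0.43 in CSDS, ketamine-treated mice (SD, n = 9), 3.75% ± 0.46 in CSDS, saline-treated mice, 3.52% ± 0.38 in CTRL, ketamine-treated mice and 3.85% ± 0.47 in CTRL, saline-treated mice (n = 10 each). In the vHipp the same groups had 4.57% ± 1.60, 4.28% ± 0.60, 3.81% ± 0.32 and 3.56% ± 0.36 (n = 10 each). All groups overlapped. Per mouse, the mPFC share was lower by a mean of 0.35 percentage points and lower in 24 of 39 mice, and without mice 9 and 11 by 0.20 points and in 22 of 37.

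**Figure D3:**
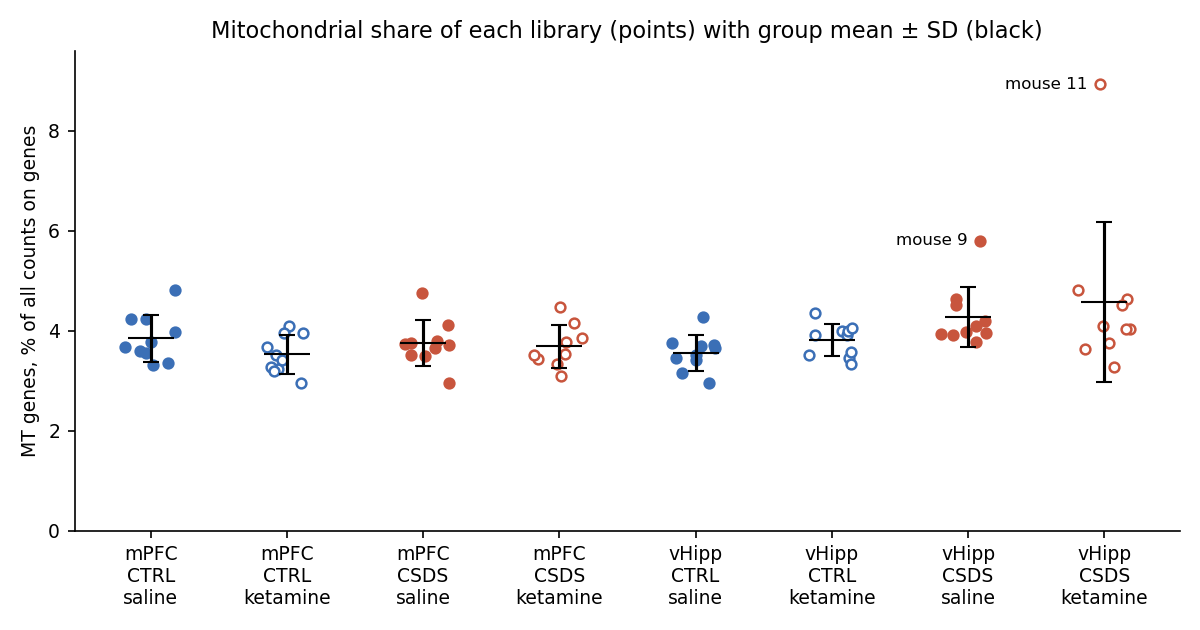
Share of each library on mitochondrial genes, in percent of all counts on genes, for the 8 groups of region, stress and treatment. Points are libraries (filled for saline, open for ketamine), with the group mean and SD in black; the CSDS, ketamine-treated vHipp of mouse 11 at 8.93% and the CSDS, saline-treated vHipp of mouse 9 at 5.80% lie above all others.

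In the vHipp, CSDS mice had a mean share of 4.42% and CTRL mice 3.69%, a difference of 0.74 percentage points with an SD within groups of 0.88. The medians were 4.07% and 3.67%. Without mouse 11 the difference was 0.50 points, without mouse 9 it was 0.67 and without both it was 0.41. CSDS was the higher group in each mouse set, by 0.20, 0.25, 1.80, 0.62 and 0.83 points, with mice 9 and 11 in the third. In the mPFC the difference was 0.03 points, against an SD of 0.44.

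The share was set beside summed markers of cell types across libraries, which is described here with Pearson's r, Spearman's rho and no test. In the vHipp, r with summed microglia markers was 0.916 (rho 0.753) over 40 libraries and 0.799 (rho 0.714) without mice 9 and 11. For astrocyte markers r was 0.885 and 0.675, for endothelial markers 0.830 and 0.624, and for neuron markers -0.391 and -0.319. Oligodendrocyte markers had an r of 0.110 and erythroid markers one of 0.323 over all 40. In the mPFC the share had an r of 0.704 with microglia markers, 0.554 with astrocyte markers, 0.543 with erythroid markers and -0.616 with neuron markers over 39 libraries, and of 0.160 and 0.183 with oligodendrocyte and endothelial markers. With the sum of the 5 hippocampal markers, to which Wfs1 gives the highest median in the mPFC, r was 0.662 in the mPFC (0.704 without mice 9 and 11) and -0.212 in the vHipp (-0.325 without them). These points share the library and its total, and the groups were pooled.

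To ask which transcripts lay behind the stress difference in the vHipp, the CSDS and CTRL groups were compared over both treatments. By edgeR, 0 of 29 mitochondrial genes tested passed the adjusted threshold, as did 0 of all 28991 genes. At an unadjusted p under 0.05, 17 of 29 were higher in CSDS and 0 lower, where 5.31% of all genes were higher. The median LFC was 0.32 over the mitochondrial genes and -0.0025 over all genes, and 28 of 29 were above 0. DESeq2 called 6 of the 29 higher, where 0.0483% of all genes were called in either direction. They were mt-Co2, mt-Rnr1, mt-Nd4, mt-Co3, mt-Cytb and mt-Co1, with DESeq2 adjusted p of 0.0252 to 0.0471.

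The values of these genes overlapped between the conditions. For mt-Co2, CTRL libraries had 147.2, 254 and 392 CPM (lowest, median, highest) and CSDS libraries 152.2, 356 and 645 CPM, with an LFC of 0.56 ± 0.13 (edgeR, adjusted p = 0.323). For mt-Nd4 the values were 2749, 3162 and 3975 CPM in CTRL and 2883, 3702 and 7618 CPM in CSDS, with an LFC of 0.31 ± 0.08. For mt-Rnr1 they were 1437, 1943 and 2374 CPM in CTRL and 1702, 2320 and 5320 CPM in CSDS (LFC 0.39 ± 0.10). CSDS medians were above CTRL medians for each, and the highest CSDS library was mouse 11 or mouse 9. In mt-Co1 the LFC was 0.26 ± 0.07, in mt-Cytb 0.27 ± 0.07, in mt-Co3 0.49 ± 0.13, in mt-Atp6 0.46 ± 0.13 and in mt-Nd3 0.48 ± 0.18. The near-copies themselves held 0.287% ± 0.098 of CSDS and 0.205% ± 0.052 of CTRL vHipp libraries (SD, n = 20 each).

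The difference depended in part on the libraries that stood apart. Without mouse 11 DESeq2 called 0 mitochondrial genes, and 14 were higher at an unadjusted p under 0.05 by edgeR, where 4.49% of all genes were. Without mouse 9 the counts were 0 and 16, where 4.91% of all genes were. Without both, DESeq2 called 0 and edgeR called 0. By edgeR, 11 of 29 were higher at an unadjusted p under 0.05, where 3.75% of all genes were, with a median LFC of 0.18. In that fit mt-Co2 had an LFC of 0.44 ± 0.12, mt-Rnr1 0.25 ± 0.06, mt-Nd4 0.21 ± 0.05, mt-Nd6 0.03 ± 0.13 and mt-Atp8 0.04 ± 0.21. With the mouse set as a covariate, edgeR again called 0 (17 at an unadjusted p under 0.05, where 5.73% of all genes were higher) and DESeq2 called 7, the same 6 genes and mt-Atp6, where 0.266% of all genes were called.

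**Figure D4:**
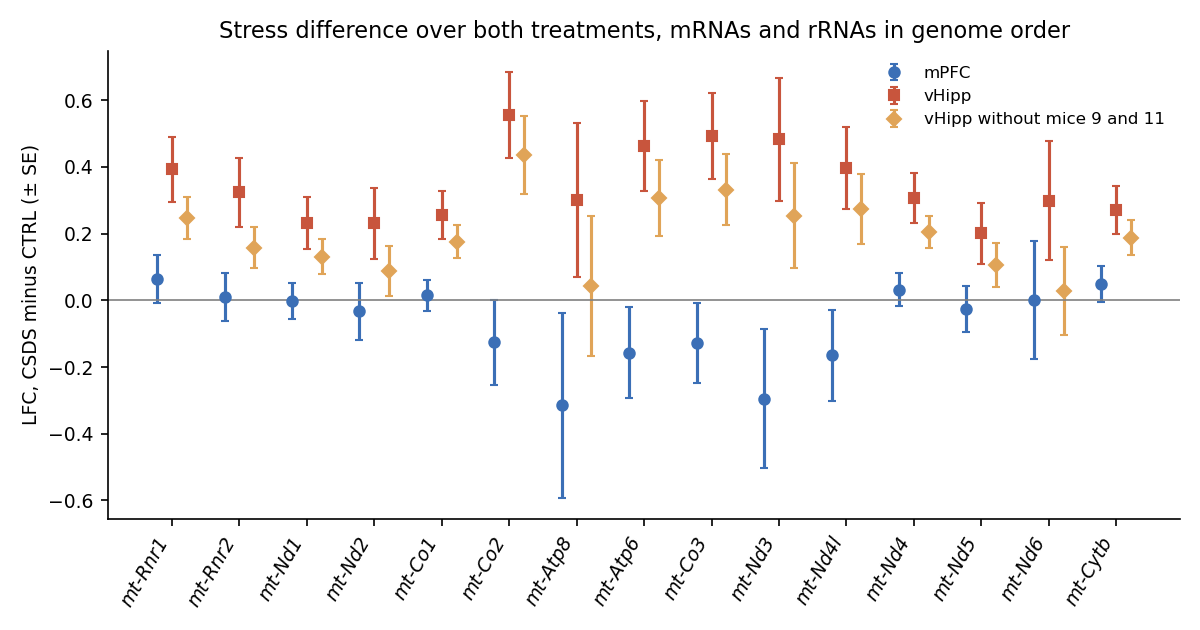
LFC of the mRNA and rRNA genes, CSDS minus CTRL over both treatments, with standard errors, in the mPFC, in the vHipp and in the vHipp without mice 9 and 11. The vHipp values lie above 0 for all 15 genes and shrink without the pair of mice, for mt-Co2 from 0.56 to 0.44, and the mPFC values lie around 0, at 0.02 for mt-Co1.

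Cell type markers moved in the same comparison. Of 5 microglia markers, 5 were higher in the vHipp of CSDS mice at an unadjusted p under 0.05, of 5 astrocyte markers 4, of 4 endothelial markers 3, of 5 choroid plexus markers 2 (median LFC 1.04) and of 5 erythroid markers 1. Of 5 hippocampal markers, 2 were lower (median LFC -0.13). None of the markers passed the adjusted threshold by edgeR. Summed microglia markers were 131.9 to 218 CPM in CTRL and 158 to 473 CPM in CSDS libraries (158 to 285 CPM without mice 9 and 11), and summed astrocyte markers 877 to 1375 CPM and 928 to 2928 CPM (928 to 1821 CPM without them). Summed neuron markers were 5538 to 8309 CPM and 5277 to 7900 CPM, and 0 of 6 neuron markers reached an unadjusted p under 0.05. The part of these cell types in the mitochondrial difference was not tested. Of the 74 nuclear-encoded subunits of oxidative phosphorylation, 8 were higher at an unadjusted p under 0.05 and 0 passed the adjusted threshold, with 73 above 0 and a median LFC of 0.07. Of the 45 genes of mitochondrial genome expression, 0 passed by edgeR, 3 were lower and 0 higher at an unadjusted p under 0.05, where 4.4% of all genes were lower, and the median LFC was -0.0014.

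Split by treatment, 11 of 29 mitochondrial genes were higher in CSDS at an unadjusted p under 0.05 in saline-treated mice (3.07% of all genes) and 8 of 29 in ketamine-treated mice (2.81% of all genes). By edgeR and by DESeq2, 0 passed the adjusted threshold in either treatment. The median LFCs were 0.34 and 0.30. Cell type markers past the same unadjusted threshold were, in saline-treated mice, 4 of 5 choroid plexus (median LFC 2.11), 3 of 5 erythroid, 2 of 4 endothelial and 1 of 5 microglia markers, all higher, and in ketamine-treated mice 4 of 5 microglia and 2 of 5 astrocyte markers, also higher; their part was not tested. The product of stress and treatment was called for 0 of 29 genes by edgeR and by DESeq2, with 1 higher at an unadjusted p under 0.05, as were 1.5% of all genes.

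In the mPFC, stress left no mitochondrial gene past the threshold. Of 29 genes tested, 0 were called by edgeR or DESeq2 and 0 had an unadjusted p under 0.05, where 3.52% of all genes did, and the median LFC was 0.0019. For mt-Co1 the values were 9355, 10882 and 14763 CPM in CTRL and 9626, 11337 and 13853 CPM in CSDS (LFC 0.02 ± 0.05), and for mt-Co2 they were 139.3, 264 and 390 CPM and 149.3, 217 and 400 CPM (LFC -0.13 ± 0.13). The largest differences among the mRNAs were those of mt-Atp8 (LFC -0.31 ± 0.28) and mt-Nd3 (-0.29 ± 0.21), each with a wide error.

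The product of stress and treatment was also read in the mPFC. Over 29 mitochondrial genes, 0 were called by edgeR or DESeq2 and 0 had an unadjusted p under 0.05, with 22 above 0 and a median LFC of 0.13. Of the 74 nuclear-encoded subunits of oxidative phosphorylation, 23 had an unadjusted p under 0.05 in the positive direction and 0 in the negative, where 2.43% of all genes had a positive one. None of these passed the adjusted threshold by edgeR or DESeq2, and 73 of 74 were above 0, with a median of 0.16. Their ketamine LFC was above 0 for 0 of 74 in CTRL mice (median -0.07) and for 71 of 74 in CSDS mice (median 0.09), comparisons that share no libraries. Cell type markers differed too: the ketamine LFC was above 0 for 0 of 5 oligodendrocyte markers in CTRL mice (median -0.16) and for 5 of 5 in CSDS mice (median 0.44), and the product of stress and treatment was above 0 for 5 of 5 oligodendrocyte markers (median 0.60) and 5 of 5 microglia markers (median 0.15), with 0 of them at an unadjusted p under 0.05. Their part in the values of the nuclear subunits was not tested. The difference between mitochondrial and nuclear genes was not tested.

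The stress difference was then compared between the regions within mice. By edgeR, 0 of 31 genes passed the adjusted threshold. At an unadjusted p under 0.05, 16 of 31 had a smaller stress difference in the mPFC and 0 a larger one, where 2.95% of all genes had a smaller one. DESeq2 called 3, mt-Co2, mt-Atp6 and mt-Co3 (each with an adjusted p of 0.0448), where 0.0286% of all genes were called. The difference of LFCs, mPFC minus vHipp, was -0.65 ± 0.17 for mt-Co2, -0.57 ± 0.15 for mt-Atp6, -0.57 ± 0.14 for mt-Co3 and -0.22 ± 0.07 for mt-Co1 by edgeR. These 3 genes are among the 5 with nearly their whole length in a nuclear copy. In the same comparison, 3 of 5 microglia, 2 of 4 endothelial and 2 of 5 choroid plexus markers and 10 of 74 nuclear-encoded subunits of oxidative phosphorylation had a smaller stress difference in the mPFC at an unadjusted p under 0.05, and 0 of each a larger one. A larger one was found for 3 of 45 genes of mitochondrial genome expression and 1 of 6 neuron markers, and a smaller one for 0 of either. These counts were not set against the share of all genes with a larger one. The part of these cell types was not tested. Without mice 9 and 11, 13 of 30 genes had a smaller difference at an unadjusted p under 0.05 by edgeR, where 2.22% of all genes did.

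Ketamine was compared with saline over both stress conditions. In the vHipp, 0 of 29 genes were called by edgeR or DESeq2 and 0 had an unadjusted p under 0.05, where 3.39% of all genes did. The LFC was above 0 for 28 of 29, with a median of 0.12. It was also above 0 for 5 of 5 astrocyte (median 0.14), 5 of 5 microglia and 4 of 4 endothelial markers (median 0.11), with 0 of them at an unadjusted p under 0.05, whereas 4 of 5 choroid plexus markers were lower at that threshold (median -2.21), and their part was not tested. The mt-Co1 values were 8654, 11294 and 14642 CPM with saline and 9329, 11424 and 24382 CPM with ketamine, an LFC of 0.13 whose interval of 2 SE reached from -0.02 to 0.27. In the mPFC, 0 of 29 were called by either tool; 1 was higher with an unadjusted p under 0.05 and 0 were lower, where 1.31% of all genes were higher. This was mt-Tv, which was at 0 in 60 of 79 libraries. For mt-Co1 the mPFC values were 9626, 11499 and 14763 CPM with saline and 9355, 10755 and 13853 CPM with ketamine, an LFC of -0.07 with an interval from -0.16 to 0.02. Both intervals included 0. The share was lower by 0.20 points with ketamine in the mPFC and higher by 0.28 points in the vHipp, where it was 0.03 points without mouse 11, 0.38 without mouse 9 and 0.13 without both. Its direction turned in mouse set 4 of the mPFC and in sets 1 and 4 of the vHipp. Between the regions, the ketamine difference was called for 0 of 31 genes by edgeR and DESeq2, and 7 had a smaller difference in the mPFC at an unadjusted p under 0.05, where 1.64% of all genes did. Of the markers in that comparison, 0 of 5 microglia (median -0.19) and 0 of 5 astrocyte markers (median -0.22) were above 0, and 5 of 5 choroid plexus markers were (median 1.76), with 1 microglia and 1 choroid plexus marker at an unadjusted p under 0.05.

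Finally, it was asked whether a mouse with a high level in the mPFC also had a high level in the vHipp. Deviations of log2 CPM from the group means were correlated over 39 mice for 5 genes and 5 ratios (10 relations, permutation of 100000 pairings, adjusted together). For mt-Nd6 Pearson's r was 0.677 and Spearman's rho 0.677 (permutation p = 1e-05 for both, the smallest these pairings can give; adjusted p = 3.33e-05 and 5e-05), and r was 0.656 without the 2 mice farthest from the median. For mt-Nd1 r was 0.492 (rho 0.531; permutation test, adjusted p = 0.00282 and 0.00134), and 0.478 without the 2 farthest. For mt-Rnr2 r was 0.450 (rho 0.434; permutation test, adjusted p = 0.00685 and 0.00823), and 0.400 without them, and for mt-Cytb r was 0.375 (rho 0.478; permutation test, adjusted p = 0.0252 and 0.00380), and 0.318 without them. The most abundant transcript, mt-Co1, had an r of 0.252 that did not pass (permutation p = 0.123, adjusted p = 0.123), and a rho of 0.326 (permutation test, adjusted p = 0.0425). With the means of the mouse sets removed, mt-Nd6 and mt-Nd1 kept their calls (r 0.571 and 0.420; permutation test, adjusted p = 0.00075 and 0.0152), whereas the r of mt-Rnr2 and mt-Cytb fell to 0.335 and 0.296 (permutation test, adjusted p = 0.0505 and 0.0753). The rho was then 0.250 for mt-Rnr2, 0.353 for mt-Cytb and 0.190 for mt-Co1 (permutation test, adjusted p = 0.139, 0.0465 and 0.246).

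The balance between transcripts was shared as well. The rRNA ratio mt-Rnr2/mt-Rnr1 had the highest value of the 10 relations, an r of 0.807 (rho 0.794; permutation test, adjusted p = 3.33e-05 and 5e-05), and 0.796 without the 2 farthest mice. The r was 0.683 for mt-Cytb/mt-Nd1 (0.630 without the 2 farthest), 0.585 for mt-Nd6/mt-Nd5 (0.577), 0.485 for mt-Rnr2/mt-Nd1 (0.340) and 0.436 for mt-Co1/mt-Nd1 (0.444), each with an adjusted permutation p of 0.00685 or less; the rho values were 0.632, 0.608, 0.420 and 0.452, with adjusted permutation p of 0.000175, 0.000175, 0.00951 and 0.00620. With the means of the mouse sets removed, the r of all 5 ratios still passed, at 0.375 to 0.587, but without the 2 farthest mice it was 0.165 for mt-Rnr2/mt-Nd1 and 0.216 for mt-Co1/mt-Nd1, and the rho did not for mt-Rnr2/mt-Nd1 and mt-Co1/mt-Nd1 (0.305 and 0.264, permutation test, adjusted p = 0.0862 and 0.131). Both libraries of a mouse carry adjacent library numbers, so that the mouse and the library number cannot be told apart.

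**Figure D5:**
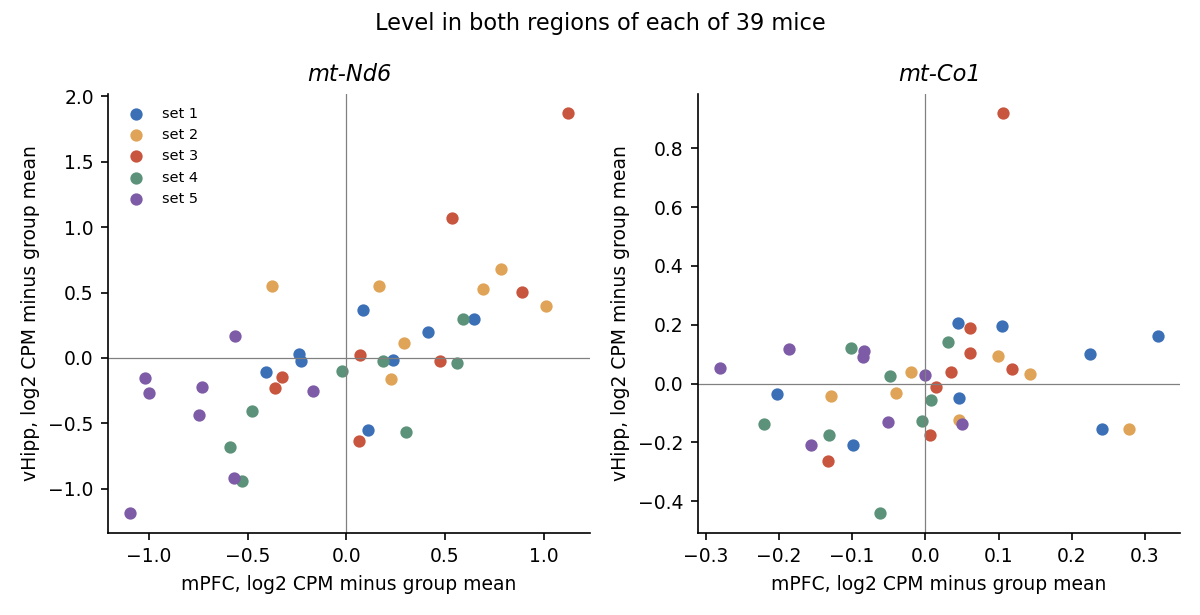
Level of mt-Nd6 and mt-Co1 in both regions of 39 mice, as log2 CPM minus the group mean, with the mPFC on the x axis, the vHipp on the y axis and colour for the mouse set. The points of mt-Nd6 rise along the diagonal (r = 0.677), those of mt-Co1 form a loose cloud (r = 0.252), and the highest vHipp point in each panel is mouse 11.

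As a description over all 20 mitochondrial genes with a mean of at least 20 counts, r was 0.207 to 0.839, above 0 in each, with a median of 0.429. The median over 15243 genes of the same minimum was 0.295. Without mice 9 and 11 the lowest r was 0.025 and the median 0.352 (0.286 over all genes), with mt-Co2 going from 0.207 to 0.025, mt-Co3 from 0.397 to 0.131 and mt-Atp6 from 0.421 to 0.195. Of the 20 genes, 5 had an r of at least 0.5, as did 22.1% of all genes. The highest values were those of mt-Ti with 0.839 and mt-Atp8 with 0.803. With the means of the mouse sets removed, they were 0.634 and 0.466, the median over mitochondrial genes was 0.344 and that over all genes 0.244.

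Levels of some transcripts followed the mouse set. Tested jointly for any difference among the 5 sets (edgeR, adjusted p under 0.05), 12 of 29 genes were called in the mPFC, where 17.1% of all genes were, and 5 of 29 in the vHipp, where 5.81% were. Those called in both regions were mt-Ti, mt-Atp8, mt-Nd2, mt-Nd6 and mt-Td. For mt-Atp8 the median was 7.22, 28.4, 24.5, 17.0 and 9.49 CPM in the mPFC of sets 1 to 5 and 12.2, 30.7, 32.3, 19.6 and 17.8 CPM in the vHipp. For mt-Ti it was 0.725, 3.64, 3.40, 1.64 and 0.728 CPM in the mPFC and 0.771, 2.80, 2.74, 1.74 and 0.962 CPM in the vHipp. In both regions the medians of mt-Atp8 and mt-Ti were highest in sets 2 and 3 and lowest in sets 1 and 5, an order that mt-Nd6, mt-Nd2 and mt-Td did not have in the vHipp. The mouse set joins animals of both conditions with a run of library numbers, and which of these goes with the levels cannot be told apart.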

How the data were processed

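Gene counts were deposited by the authors as raw counts per gene for 79 libraries (polyadenylated RNA, Illumina Stranded mRNA Prep, paired-end sequencing on a NovaSeqXPlus; total RNA of RIN 8 or more). The submitters' processing notes name bcl2fastq 2.20.0.422 and the build GRCm38. The aligner, the counting program, its use of strand and its treatment of reads that fit several places are not given in the sources used here. Groups came from the sample titles; mouse numbers in them pair the regions of an animal, which was kept as a block in comparisons between regions. Symbols were matched for 55144 of 55471 gene IDs with GENCODE M21, and near-copies were found with blastn 2.17.0 among its transcripts (at least 95% identity over at least 200 bases).

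Genes with more than 10 counts in total and detected in more than 3 libraries were tested with edgeR 4.0.16 in R 4.3.3 (quasi-likelihood F-test, TMM scaling, Benjamini-Hochberg adjustment over all genes, threshold 0.05). Within a region the 4 groups shared 1 fit, since the social box used as a covariate by the study is not in the labels. The mitochondrial genes stayed in the library totals. Ratios of transcripts (pseudocount 0.5 counts) and correlations were tested by permutation (100000 resamples; Python 3.11.15, numpy 2.4.6, scipy 1.17.1, pandas 2.3.3). CPM are counts per 1000000 counts on genes in a library. Shares of a library are given without intervals, since at these depths counting error is far under the spread between mice.

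Alternatives were DESeq2 1.42.0, other scalings and filters, a fit without the block, the mouse set as a covariate, each mouse set alone, and fits without mice 9 and 11, of which the last, the DESeq2 fits with the set and without these mice, and the joint test of the sets were added after seeing the data. The scripts were tested on simulated counts. Mitochondrial genes could all be named; of the other lists, up to 3 called genes with the largest LFC, the markers of the labelled tissues and the near-copies. The members and the lists were chosen with earlier results of these data known. No separate statement on culture or litter was used, and each library is 1 animal and region, so replicates within a group are mice; as stress was given to whole social groups, p-values for stress measure the spread between mice, not between social groups. The values of 1 marker of a labelled tissue are not reported here.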

Additional observations from a re-analysis of the deposited data

Results flagged for a closer look

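In 48 sets of values (the share and 5 transcripts in each of the 8 groups), the highest or lowest library was set against the others of its group by Dixon's criterion, which marks about 1 in 20 groups by chance; 13 were marked.

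Of these, 11 belong to mice 9 and 11, the animals whose vHipp libraries stood apart in cell type markers. In the CSDS, ketamine-treated vHipp, mouse 11 had a share of 8.93%, 11665 CPM of mt-Nd1, 24382 CPM of mt-Co1, 145.3 CPM of mt-Nd6, 5320 CPM of mt-Rnr1 and 9256 CPM of mt-Rnr2, each the highest of its group. Its mPFC was also the highest of its group for mt-Nd6, at 52.2 CPM, while the share there, 4.15%, lay inside the range of the group. In the CSDS, saline-treated vHipp, mouse 9 had a share of 5.80%, 8190 CPM of mt-Nd1, 4326 CPM of mt-Rnr1 and 6585 CPM of mt-Rnr2, again each the highest. The part of astrocyte, microglia and choroid plexus RNA in these values was not tested.

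The remaining values were single: mt-Rnr1 at 3419 CPM in the CSDS, ketamine-treated mPFC of mouse 1, and mt-Nd1 at 6718 CPM in the CTRL, saline-treated vHipp of mouse 24, which also had the highest mPFC share, at 4.82%.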

How the results depend on the processing

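Most results kept their direction and their side of the threshold. Those that did not are listed next, and the cause was not tested. Fits of a single set also hold fewer mice. The region difference was called for 9, 4, 4 and 8 genes in mouse sets 1 to 4 alone, against 20 with all, and for 19 without the mouse as a block, where mt-Atp8 lost its call (edgeR, adjusted p = 0.0859). Directions turned for mt-Rnr1 in set 1 (LFC 0.069), for mt-Tw in set 4 (0.0089), and in set 2 for mt-Rnr1 (0.0744), mt-Co1 (0.0155), mt-Co2 (0.107), mt-Atp6 (0.0982), mt-Co3 (0.0585), mt-Nd3 (0.13) and mt-Te (0.11). By DESeq2, 6 mitochondrial genes were called for stress in the vHipp, 7 with the mouse set as a covariate, and 3 for the difference of the stress effect between regions, against 0 by edgeR. The share difference between CSDS and CTRL in the vHipp was 1.80 points in set 3. The share difference turned in set 2 between the regions (0.056 points), in sets 1 and 5 (-0.0436 and -0.0751) and without mice 9 and 11 (-0.0178) for stress in the mPFC, in set 4 (0.144) for ketamine in the mPFC, and in sets 1 and 4 (-0.371 and -0.0377) for ketamine in the vHipp. Ratio differences that did not pass turned for mt-Nd6/mt-Nd5 with stress in the vHipp without mice 9 and 11 (-0.07) and, without set 1, for mt-Rnr2/mt-Nd1 with stress in the mPFC (-0.03) and ketamine in the vHipp (0.02) and for mt-Co1/mt-Nd1 with stress in the vHipp (-0.01). Without set 1, mt-Co1/mt-Nd1 had 0.0274 (permutation test, adjusted p = 0.263) and mt-Rnr2/mt-Nd1 -0.0912 (adjusted p = 0.0164, permutation test). With set means removed, r over mice was 0.296 for mt-Cytb and 0.335 for mt-Rnr2 (permutation test, adjusted p = 0.0753 and 0.0505), and the rho of mt-Rnr2, mt-Rnr2/mt-Nd1 and mt-Co1/mt-Nd1 lost its call (permutation test, adjusted p = 0.139, 0.0862 and 0.131). The rho of mt-Co1 passed under no alternative (permutation test, adjusted p = 0.0699 to 0.246). Scaling by library totals moved the median of all genes by 0.05 and took the region call from mt-Co1. At these depths, tRNAs at 0 in most libraries cannot be compared. How reads that fit both a mitochondrial gene and its near-copy were counted is not given in the sources used here, so values of mt-Co2, mt-Atp8, mt-Atp6, mt-Co3, mt-Nd3 and mt-Nd4l are uncertain.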
